A study of Mus musculus with 4 samples.

Results

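The genes described here encode voltage-gated calcium channel subunits, the calcium release channels of the endoplasmic reticulum, and the sensors and pores of store-operated calcium entry. They were taken by name, as every gene of the deposited expression table whose symbol begins with Cacn, Ryr, Itpr, Stim or Orai (for the last 4 followed by a digit), which gave 37 of 23996 genes. The classes were 10 alpha1, 4 alpha2delta, 4 beta and 8 gamma subunits, 6 release channels and 5 store entry genes. The new hair cells (2 libraries) carried both eGFP and tdTomato and were induced from supporting cells by Atoh1 overexpression. The original hair cells (2 libraries) carried eGFP alone and arose in normal development. Both groups were sorted from cochleae of C57BL/6 mice on postnatal day 7, and their donors carried Sox2-CreER, Atoh1-HA behind a loxP-flanked stop, Atoh1-eGFP and Rosa26-tdTomato. Tamoxifen (0.20 mg/g, postnatal day 3) switched on Cre, which Sox2 drives in cochlear supporting cells, while control mice received corn oil. The labels do not say which of these mice gave the original hair cells, or whether the libraries of a group came from separate animals. Levels are FPKM (fragments per kilobase of transcript, scaled to the mapped fragments), with 1 value per gene and group, so the spread between libraries and their depth are unknown. In sorted bulk samples, fewer cells of a type and less RNA per cell cannot be told apart.

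Voltage-gated calcium channels open on depolarization. An alpha1 subunit forms the pore and sets the channel type, an extracellular alpha2delta subunit and a cytosolic beta subunit promote its delivery to the membrane and tune its gating, and some gamma subunits join it in muscle while others serve AMPA receptors. In inner hair cells, an L-type channel built on Cacna1d supplies the calcium that triggers transmitter release at ribbon synapses. Ryanodine receptors (Ryr) and inositol trisphosphate receptors (Itpr) release calcium from the endoplasmic reticulum. When that store empties, the membrane sensors Stim1 and Stim2 gate the Orai pores of the plasma membrane.

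The labels were set against marker genes. The driver gene Atoh1 stood at 83.4 FPKM in new and 791 FPKM in original hair cells, and the table does not separate transgene from endogenous transcripts. All 12 listed hair cell markers were above 0 in both groups, with sums of 875 FPKM in new and 42528 FPKM in original hair cells. Ocm alone gave 592 FPKM in new and 26071 FPKM in original hair cells. All 12 were lower in new hair cells, but Pou4f3 was nearly equal, at 16.1 FPKM in new and 16.7 FPKM in original hair cells. Pou4f3 was higher in new hair cells under the 3 other scalings described below. Of 11 supporting cell markers past the level filter explained below, 9 were higher in new hair cells, with list sums of 1174 FPKM in new and 309 FPKM in original hair cells. Of 8 spiral ganglion neuron markers, 2 were higher (Nefh and Snap25) and 6 lower in new hair cells, with sums of 13.5 FPKM in new and 3531 FPKM in original hair cells, where Nefl alone gave 3214 FPKM. Of 6 Schwann cell and glia markers, 1 was higher (Mbp) and 5 lower, with sums of 13.8 FPKM in new and 996 FPKM in original hair cells, where Cnp alone gave 983 FPKM. Of 8 mesenchyme markers, 2 were higher (Lum and Tbx18) and 6 lower, with sums of 413 FPKM in new (Lum 375 FPKM) and 2033 FPKM in original hair cells (Otor 1383 FPKM). Of 6 macrophage and immune markers, 2 were higher (Tyrobp and Cd68), 3 lower and Ptprc at 0 in both groups, with sums of 73.0 FPKM in new (Tyrobp 71.7 FPKM) and 4.05 FPKM in original hair cells. Of 10 muscle markers, 5 were above 0 in new hair cells alone, with a sum of 0.206 FPKM, and Tnnc2 in original hair cells alone, at 2.85 FPKM. These marker levels differed between the groups, and their part in the results below was not tested. All FPKM values summed to 244225 in new and 2165833 in original hair cells, which is 8.87-fold apart. Directions are on the deposited scale, where 45.3% of all genes past the level filter were higher in new hair cells and 54.7% lower. Those of the members and the lists of partner genes are given under other scalings below. With equal sums 11 of 12 hair cell markers were still lower and all 11 tested supporting cell markers higher in new hair cells. Under that scaling 7011 of all 9026 genes past the filter were higher.

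Most of the 37 genes were low. At least 1 FPKM was reached by 8 members in new and 8 in original hair cells, of which 5 reached it in both. Of the others, 7 were listed at 0 in both groups, 1 only in new and 4 only in original hair cells. Tested genes are those that reached 1 FPKM in either group and were above 0 in both, 9026 in the table and 11 among the members. Of these 11, 3 passed the filter through new hair cells alone (Cacna1a, Cacna2d4 and Itpr2). Another 3 passed it through original hair cells alone (Orai2, Ryr2 and Cacnb2). A difference in these genes was partly set by the filter. Each fold given for them rests on a value under 1 FPKM in the other group, whose precision is unknown. The other 26 members stayed under 1 FPKM in both groups, with a highest value of 0.661 FPKM in new hair cells (Stim1) and 0.581 FPKM in original hair cells (Cacna1g).

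**Figure D1:**
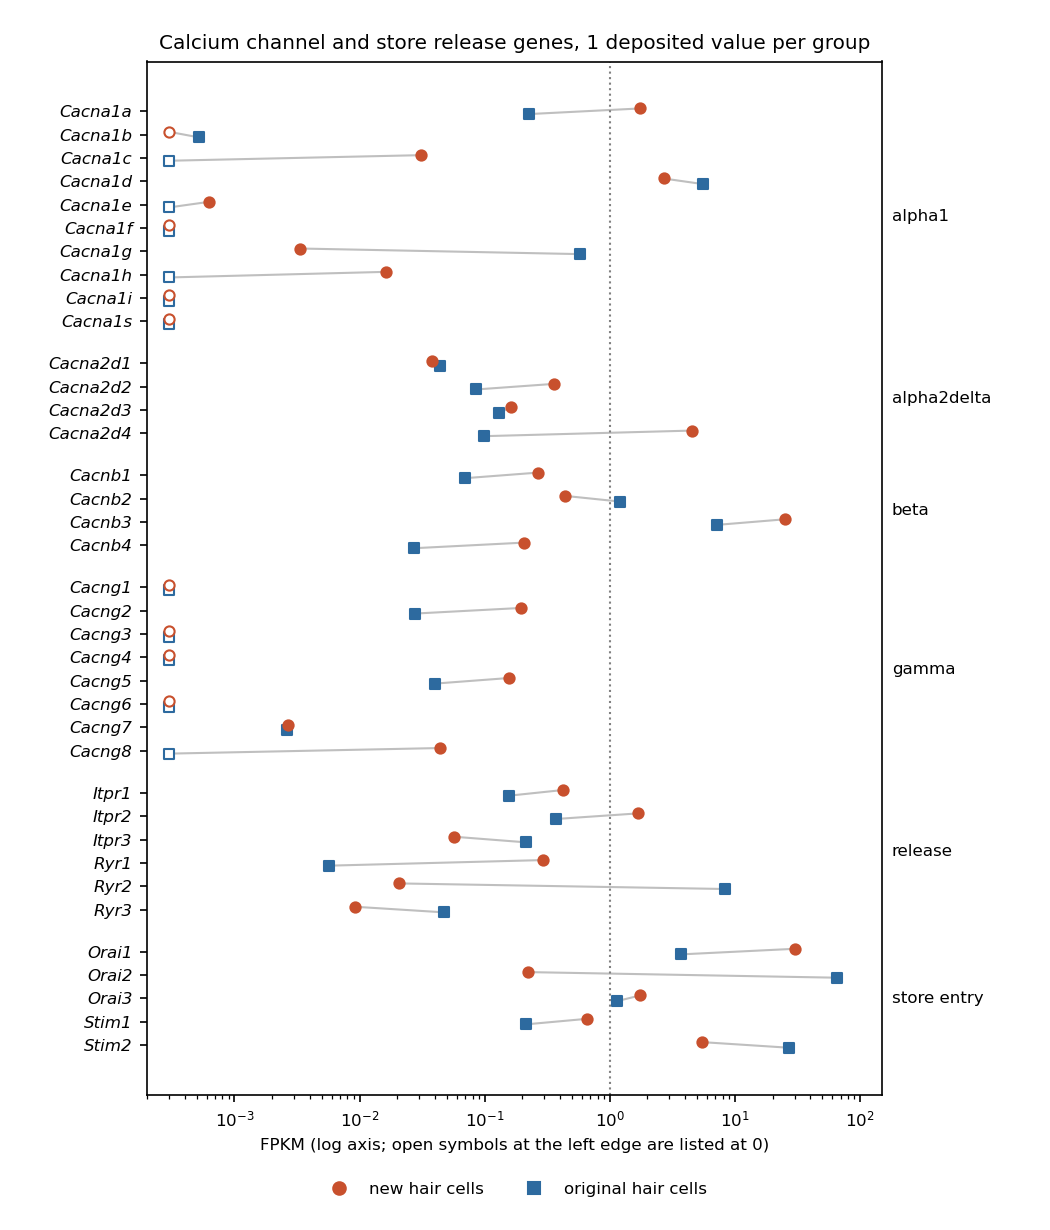
FPKM of the 37 genes by class on a log axis, with circles for new and squares for original hair cells, 1 deposited value per group and no error bars. The dotted line marks 1 FPKM and open symbols are genes listed at 0. Orai2 and Ryr2 lie far to the right in original hair cells, and Orai1, Cacnb3 and Cacna2d4 lie to the right in new hair cells.

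On the log2(FPKM + 1) scale, which understates the change of low genes, 4 of the 11 tested members were higher in new hair cells by 2-fold or more (36.4%, against 19.9% of all tested genes). These were Orai1, Cacna2d4, Cacnb3 and Cacna1a. At least 2-fold lower were 3 of the 11 (27.3%, against 34.9% of all tested genes), namely Orai2, Ryr2 and Stim2. The remaining 4, Itpr2, Orai3, Cacnb2 and Cacna1d, differed by less. The median difference of the 11 was 0.35, beside -0.21 over all tested genes. With a filter of 5 FPKM, which left 6 members, it turned to -1.47, beside -1.11 over all genes tested then. With both columns scaled to equal sums, 8 members were at least 2-fold higher and 2 lower, beside 6278 and 1354 of all tested genes. When each p of the authors' deposited table was adjusted by Benjamini-Hochberg over all tested genes, 0 of the 9026, and so 0 members, passed 0.05. Before adjustment, 1 of the 11 members, Orai2, had a p under 0.05 in the authors' deposited table, as did 9.38% of all tested genes.

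**Figure D2:**
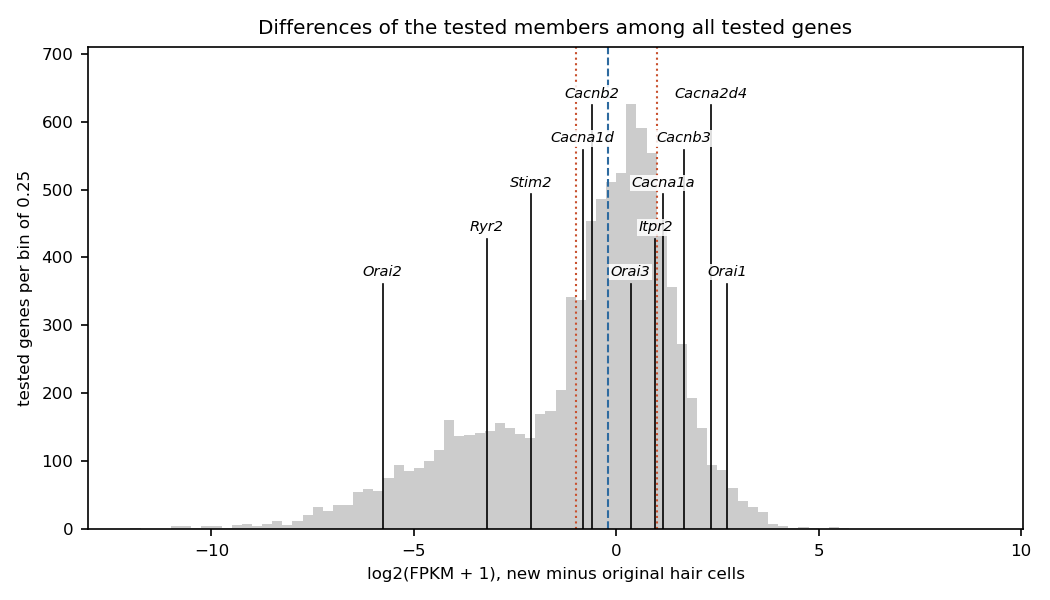
Histogram of the difference in log2(FPKM + 1), new minus original hair cells, over all 9026 tested genes, with a line for each of the 11 tested members. The dashed line is the median of all tested genes (-0.21) and the dotted lines mark a 2-fold difference. Orai2 at -5.77 and Orai1 at 2.74 are the members farthest out on either side.

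Store-operated entry held the most abundant members, and its pore genes stood in opposite order in both groups. Orai2 (mm10, chromosome 5, 136147461 to 136170656) encodes a pore subunit that in mouse cells tempers the current of Orai1. It stood at 0.224 FPKM in new and 65.9 FPKM in original hair cells, 295-fold lower in new hair cells, with p = 0.0286 (0.526 after Benjamini-Hochberg adjustment) from the authors' deposited table. Orai1 (mm10, chromosome 5, 123015074 to 123030452), the main pore of the calcium release-activated current, stood at 30.5 FPKM in new and 3.73 FPKM in original hair cells, 8.18-fold higher in new hair cells, with p = 0.149 in the authors' deposited table. Orai1 was thus the most abundant member in new hair cells and Orai2 in original hair cells.

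The FPKM of Orai1 over that of Orai2 was 136 in new and 0.0565 in original hair cells. This ratio does not depend on a linear scaling of either column. Orai2 lay at percentile 53.9 of all genes in new and 92.8 in original hair cells, and Orai1 at percentile 95.3 in new and 79.4 in original hair cells. Orai3, a pore subunit found only in mammals, was close in both groups, at 1.75 FPKM in new and 1.15 FPKM in original hair cells.

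Of the sensors, Stim2, which responds to small falls of the store, was the more abundant in both groups. Stim2 stood at 5.50 FPKM in new and 27.1 FPKM in original hair cells, 4.92-fold lower in new hair cells, with p = 0.306 in the authors' deposited table. Its log2 difference of -2.11 turned to 0.83 with equal sums, where the median of all tested genes was 2.53. Stim1, the sensor of strong store depletion, stayed under the filter at 0.661 FPKM in new and 0.213 FPKM in original hair cells. Stim2 exceeded Stim1 8.32-fold in new and 127-fold in original hair cells. The 5 store entry genes summed to 38.6 FPKM in new and 98.1 FPKM in original hair cells. Orai1 made up 78.9% of that sum in new and 3.80% in original hair cells, against 0.579% in new and 67.2% in original hair cells for Orai2.

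Promoter bases are shown for the 2 most negative and the 2 most positive log2 differences among tested members with a promoter entry, since they include the pore genes that stood in opposite order. The sequences are the 250 bases upstream of the RefSeq start on GRCm38.p6, 5′ to 3′ on the gene's strand, at chr5:123014824-123015073 (plus strand) for Orai1, chr5:136170657-136170906 (minus) for Orai2, chr13:12106946-12107195 (minus) for Ryr2 and chr15:98632078-98632327 (plus) for Cacnb3. Capitals mark CANNTG, the E-box core that basic helix-loop-helix factors such as Atoh1 bind.
Orai1: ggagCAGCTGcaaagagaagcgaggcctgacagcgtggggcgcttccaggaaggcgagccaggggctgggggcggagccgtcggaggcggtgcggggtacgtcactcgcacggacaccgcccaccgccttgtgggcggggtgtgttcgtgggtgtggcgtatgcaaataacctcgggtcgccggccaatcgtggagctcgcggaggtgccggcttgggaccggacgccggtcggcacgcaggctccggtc
Orai2: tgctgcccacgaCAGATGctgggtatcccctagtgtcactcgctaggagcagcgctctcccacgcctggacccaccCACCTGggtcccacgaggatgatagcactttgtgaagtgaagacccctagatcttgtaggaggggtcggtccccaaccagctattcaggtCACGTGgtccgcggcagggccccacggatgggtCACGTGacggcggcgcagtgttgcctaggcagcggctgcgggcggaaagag
Ryr2: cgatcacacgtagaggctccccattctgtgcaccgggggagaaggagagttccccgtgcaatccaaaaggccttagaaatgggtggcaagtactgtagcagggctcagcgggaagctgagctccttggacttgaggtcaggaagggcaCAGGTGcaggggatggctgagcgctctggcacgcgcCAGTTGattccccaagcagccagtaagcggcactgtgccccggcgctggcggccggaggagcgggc
Cacnb3: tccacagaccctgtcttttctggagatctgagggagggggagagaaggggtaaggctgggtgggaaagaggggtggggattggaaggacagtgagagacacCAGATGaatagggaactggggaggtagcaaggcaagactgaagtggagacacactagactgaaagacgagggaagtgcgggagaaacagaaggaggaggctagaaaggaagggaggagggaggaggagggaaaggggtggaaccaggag

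CANNTG, which reads the same on both strands, occurred 4 times in the Orai2 window and 2 times in that of Ryr2. It occurred 1 time each in the windows printed for Orai1 and Cacnb3. A further Cacnb3 entry, chr15:98634517-98634766 (plus strand), is not printed and held 0 CANNTG matches. Of the 37 members, 29 had 1 or more promoter entries, 38 in all, and 25 of these 38 windows held CANNTG (65.8%, against 66.2% of 32851 windows of the same length). CAGCTG, a form of that core, was in 10 of the 38 (26.3%, against 13.0% of all windows). CAGATG, another form, read on both strands, was in 6 of the 38 (15.8%, against 14.4%). The GC box GGGCGG, read on both strands, was in 22 of the 38 (57.9%, against 32.7%). The windows of members had a median GC content of 62.4%, against 52.4% over all windows, and windows of 1 gene are not independent. A match describes letters in this window and is not evidence of binding.

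Release channels were led by different genes in both groups. Ryr2 (mm10, chromosome 13, 11553103 to 12106945), the ryanodine receptor of the heart that is also widespread in neurons, stood at 0.0206 FPKM in new and 8.40 FPKM in original hair cells, 408-fold lower in new hair cells. Its log2(FPKM + 1) difference was -3.20, and the fold rests on the very low value in new hair cells. Its p was 0.072 in the authors' deposited table. Ryr2 lay at percentile 43.7 in new and 84.6 in original hair cells. It made up 0.828% of the FPKM sum of the 6 release channels in new and 91.3% in original hair cells.

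Itpr2, an inositol trisphosphate receptor, was the largest release channel gene of new hair cells. It stood at 1.68 FPKM in new and 0.373 FPKM in original hair cells, 4.52-fold higher in new hair cells, with p = 0.181 in the authors' deposited table. It made up 67.7% of the release class in new and 4.05% in original hair cells, and Itpr1 16.9% in new and 1.72% in original hair cells. Itpr1, the receptor best known from Purkinje cells, was low, at 0.421 FPKM in new and 0.158 FPKM in original hair cells. Itpr3 was at 0.0569 FPKM in new and 0.214 FPKM in original hair cells.

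Ryr1, the receptor of skeletal muscle, was at 0.294 FPKM in new and 0.00568 FPKM in original hair cells, and Ryr3 at 0.00920 FPKM in new and 0.0472 FPKM in original hair cells. Of 10 muscle markers, 5 were listed at 0 in new and 9 in original hair cells, Actc1, Myh3, Myh8 and Tnnt3 in both. The release class summed to 2.49 FPKM in new and 9.20 FPKM in original hair cells.

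**Figure D3:**
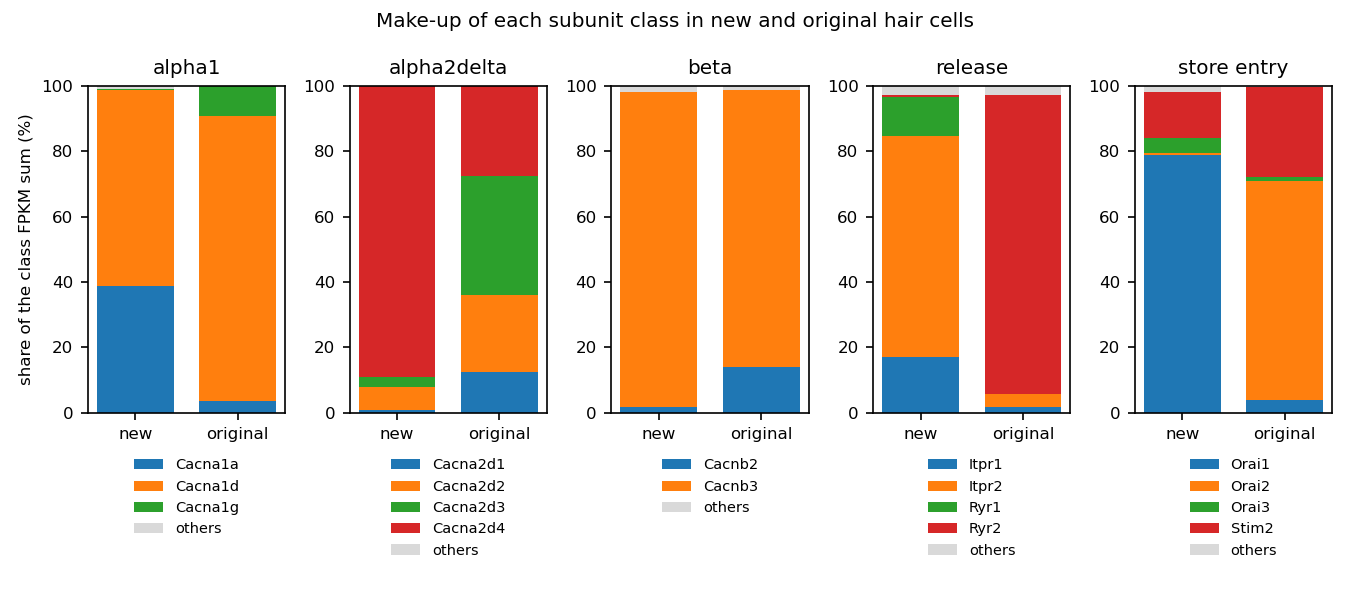
Share of each gene in the FPKM sum of its class, in percent, with new hair cells left of original hair cells in each panel (1 value per group). Genes under 3% in both groups are joined as others, and the gamma class is not drawn because none of its genes reached 1 FPKM. The leading gene differed between groups in the alpha2delta, release and store entry classes and was shared in the alpha1 and beta classes. In original hair cells the leading alpha2delta gene, Cacna2d3, was at only 0.130 FPKM, so the order in that column rests on very low values.

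Among alpha1 subunits, Cacna1d led in both groups and Cacna1a took a larger share in new hair cells. Cacna1d was at 2.70 FPKM in new and 5.56 FPKM in original hair cells, 2.06-fold lower in new hair cells, with p = 0.695 in the authors' deposited table. Its log2(FPKM + 1) difference of -0.83 turned to 1.93 with equal sums (-0.61 against the median over all tested genes). Its percentile was 78.0 in new and 82.1 in original hair cells. The table lists Cacna1d under 1 locus with Chdh and Dcp1a (mm10, chromosome 14, 30009000 to 30527056), and its annotated exons share 589 bases with those of Chdh on the opposite strand, so reads there may be divided between genes.

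Cacna1a, the pore of the P/Q-type channel of central synapses, stood at 1.74 FPKM in new and 0.227 FPKM in original hair cells (mm10, chromosome 8, 84415364 to 84640249). It was 7.68-fold higher in new hair cells, with p = 0.110 in the authors' deposited table. Cacna1d exceeded Cacna1a 1.55-fold in new and 24.5-fold in original hair cells. Cacna1d made up 60.1% of the alpha1 sum in new and 87.3% in original hair cells, and Cacna1a 38.8% in new and 3.56% in original hair cells. Cacna1g, a low-voltage-activated T-type pore, was at 0.00336 FPKM in new and 0.581 FPKM in original hair cells.

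The remaining alpha1 genes were at or near 0. The retinal L-type gene Cacna1f, the T-type gene Cacna1i and the skeletal muscle gene Cacna1s were listed at 0 in both groups. The L-type gene Cacna1c, the R-type gene Cacna1e and the T-type gene Cacna1h were listed at 0 in original hair cells, and the highest of them in new hair cells was Cacna1c at 0.0312 FPKM. The N-type gene Cacna1b was listed at 0 in new hair cells and at 0.000522 FPKM in original hair cells.

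Alpha2delta genes were low apart from Cacna2d4 in new hair cells. Cacna2d4, known as the partner of Cacna1f channels at photoreceptor ribbon synapses, stood at 4.54 FPKM in new and 0.0982 FPKM in original hair cells, 46.2-fold higher in new hair cells, with p = 0.200 in the authors' deposited table. Its log2(FPKM + 1) difference was 2.33, and the fold rests on the very low value in original hair cells. Cacna2d4 made up 89.1% of the alpha2delta sum in new and 27.5% in original hair cells. Cacna1f itself was listed at 0 in both groups.

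Cacna2d4 shares its listed locus (mm10, chromosome 6, 119236526 to 119352407) with Lrtm2, which stood at 4.75 FPKM in new and 47.1 FPKM in original hair cells. The neighbour was therefore 9.90-fold lower in new hair cells where Cacna2d4 was higher. No shared bases were found between the annotated exons of these genes, and the sources used here do not say how reads were divided between them. Cacna2d2, an alpha2delta subunit needed for normal calcium currents of mouse hair cells, was at 0.357 FPKM in new and 0.0847 FPKM in original hair cells. Cacna2d3 was at 0.163 FPKM in new and 0.130 FPKM in original hair cells, and Cacna2d1, a binding site of gabapentin, at 0.0380 FPKM in new and 0.0439 FPKM in original hair cells. The table gave p = 1 to these 3 genes in the authors' deposited comparison.

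Beta subunits were dominated by Cacnb3 in both groups. Cacnb3 (mm10, chromosome 15, 98632328 to 98644536) stood at 25.2 FPKM in new and 7.19 FPKM in original hair cells, 3.51-fold higher in new hair cells, with p = 0.276 in the authors' deposited table. It made up 96.5% of the beta sum in new and 84.7% in original hair cells, and lay at percentile 94.6 in new and 83.7 in original hair cells. Cacnb2, the main beta subunit of the inner hair cell channel in mice, went the other way. Cacnb2 was at 0.442 FPKM in new and 1.199 FPKM in original hair cells, 2.71-fold lower in new hair cells, with p = 0.343 in the authors' deposited table. Its difference of -0.61 turned to 1.16 with equal sums (-1.37 against the median over all tested genes).

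Cacnb3 exceeded Cacnb2 57.0-fold in new and 6.00-fold in original hair cells. Cacnb3 over the pore gene Cacna1d was 9.35 in new and 1.29 in original hair cells. Cacnb1, the skeletal muscle beta subunit, was at 0.267 FPKM in new and 0.0696 FPKM in original hair cells, and Cacnb4, a brain beta subunit, at 0.206 FPKM in new and 0.0272 FPKM in original hair cells. Both stayed under the filter.

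No gamma gene reached 1 FPKM in either group. Cacng1, Cacng3, Cacng4 and Cacng6 were listed at 0 in both groups. Cacng2, known as stargazin and an auxiliary subunit of AMPA receptors, was at 0.194 FPKM in new and 0.0276 FPKM in original hair cells. Cacng5 was at 0.157 FPKM in new and 0.0400 FPKM in original hair cells, and Cacng7 at 0.00270 FPKM in new and 0.00265 FPKM in original hair cells. Cacng8 was at 0.0444 FPKM in new hair cells and listed at 0 in original hair cells. All 8 had p = 1 in the authors' deposited table.

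**Figure D4:**
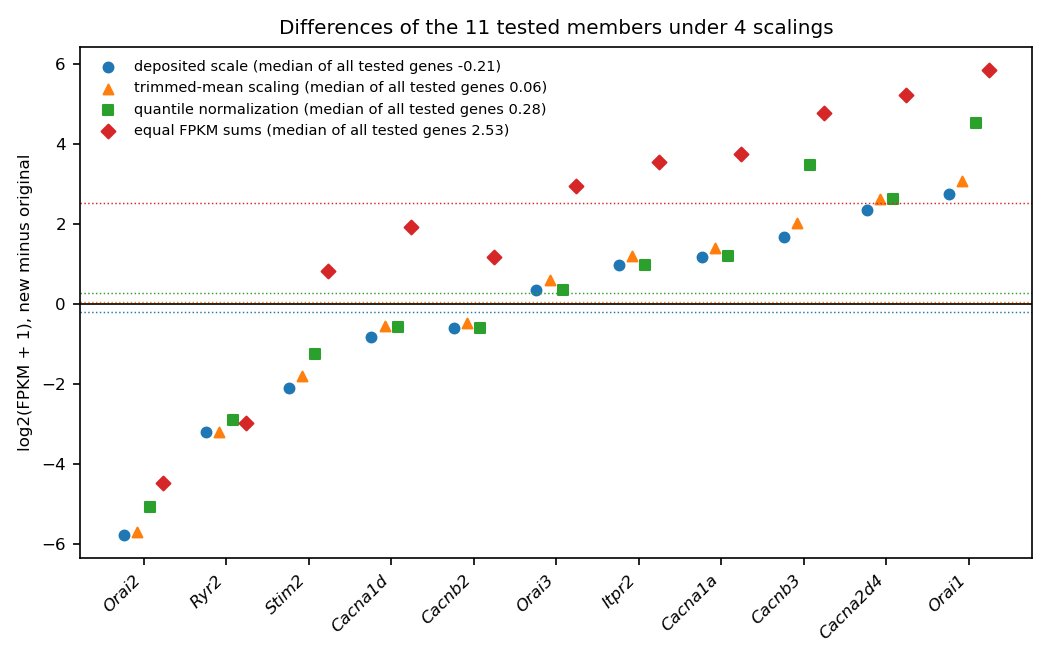
Difference in log2(FPKM + 1), new minus original hair cells, of the 11 tested members on the deposited scale and under 3 other scalings (1 value per gene and scaling), with dotted lines at the median of all tested genes under each. Orai2 and Ryr2 stay below 0 and Orai1, Cacna2d4, Cacnb3, Cacna1a, Itpr2 and Orai3 above 0 in all 4, while Stim2, Cacna1d and Cacnb2 cross 0 with equal sums.

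The direction of 8 of the 11 tested members was the same under the 4 scalings. The 3 other scalings raised new against original hair cells for the median gene. Members already higher in new hair cells therefore had little room to turn, and their unchanged direction says little. With trimmed-mean scaling, quantile normalization and equal sums the median of all tested genes moved from -0.21 to 0.06, 0.28 and 2.53. Relative to that median, Orai2 lay at -5.76, -5.37 and -7.02 under these scalings in that order, and Ryr2 at -3.25, -3.19 and -5.52. Orai1 lay 3.02, 4.23 and 3.31 above it and Cacnb3 1.96, 3.19 and 2.25 above it. Stim2 lay at -1.87, -1.53 and -1.71, and Cacna1d and Cacnb2 were also below it under all 3. Orai3 lay only 0.06 above it after quantile normalization.

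Genes that work with these channels were examined as a list of 86 symbols in 8 roles, with older and newer symbols for some genes. Of the symbols, 79 were in the table and 41 tested. Those absent from the table were alternative names of genes present in it. Of the 41, 16 stood higher in new hair cells and 25 lower (45.3% and 54.7% of all tested genes), and their median difference was -0.81 (-0.21 over all tested genes). By at least 2-fold, 8 were higher (19.5%, against 19.9% of all tested genes) and 20 lower (48.8%, against 34.9%). These directions depended on the scaling: 24 of the 41 were higher after quantile normalization and 34 with equal sums, where 5056 and 7011 of the 9026 tested genes were higher. Counts by role below rest on 4 to 7 genes, are on the deposited scale and are to be read against the same shares of all tested genes. Presynaptic channel partners included the lowest. Erc2, an active zone scaffold, stood at 0.733 FPKM in new and 316 FPKM in original hair cells, with p = 0.0003 (0.526 after Benjamini-Hochberg adjustment) from the authors' deposited table. Rims2, which raises the number of Cacna1d channels at mouse inner hair cell synapses, stood at 1.12 FPKM in new and 93.1 FPKM in original hair cells, with p = 0.0185 in the authors' deposited table. The other 3 tested genes of this role, Erc1, Stac and Cabp2, stood higher in new hair cells by 2-fold or more, and are named after their values were seen. Stac, an adaptor of L-type channels, was at 11.4 FPKM in new and 0.0888 FPKM in original hair cells, and Cabp2, a calcium-binding modulator of the inner hair cell channel, at 46.3 FPKM in new and 22.3 FPKM in original hair cells.

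Erc2, Rims2 and Tmem110 were lower in new hair cells under all 4 scalings, as was Calm2. Calm2, whose product calmodulin binds alpha1 subunits and release channels, stood at 515 FPKM in new and 20627 FPKM in original hair cells. Of the release channel regulators, 2 of 6 tested were higher and 4 lower. Fkbp1a, which binds ryanodine receptors, was at 76.4 FPKM in new and 193 FPKM in original hair cells, and Sri, which encodes sorcin, at 24.3 FPKM in new and 156 FPKM in original hair cells. Both were higher in new hair cells with equal sums, and 5 of the 6 genes of this role were.

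Among 7 tested genes of the endoplasmic reticulum store, 6 were lower in new hair cells. The chaperone Hsp90b1 was at 78.0 FPKM in new and 732 FPKM in original hair cells, and Pdia3 at 148 FPKM in new and 678 FPKM in original hair cells. Pdia3 turned to higher after quantile normalization and with equal sums, where 4 and 6 of the 7 were higher. Of 4 tested store entry regulators, 3 were lower. Tmem110, which helps to form the contacts where Stim1 meets Orai1, stood at 2.54 FPKM in new and 93.2 FPKM in original hair cells, with p = 0.0324 in the authors' deposited table. Tmem66, a brake on store entry, was at 43.3 FPKM in new and 212 FPKM in original hair cells, and Sept2 at 16.1 FPKM in new and 102 FPKM in original hair cells. Tmem66 and Sept2 turned to higher in new hair cells with equal sums, and Tmem66 also after quantile normalization.

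Of 5 tested lysosomal and leak channel genes, 4 stood higher in new hair cells. Mcoln1, a lysosomal cation channel, was at 12.3 FPKM in new and 3.10 FPKM in original hair cells, and Mcoln3, its relative in hair cells, at 3.91 FPKM in new and 3.31 FPKM in original hair cells. Mitochondrial uptake genes were split, 2 higher and 2 lower. Smdt1, a subunit of the mitochondrial calcium uniporter, was at 257 FPKM in new and 1496 FPKM in original hair cells, and Micu2, a gatekeeper of it, at 6.11 FPKM in new and 5.01 FPKM in original hair cells. All 4 were higher after quantile normalization and with equal sums. Of 5 tested phospholipase C genes, which make inositol trisphosphate, 2 were higher and 3 lower. Plce1 was at 1.27 FPKM in new and 9.25 FPKM in original hair cells, and Plcd4 at 2.96 FPKM in new and 2.31 FPKM in original hair cells. All 5 were higher with equal sums.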

How the data were processed

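Total RNA of sorted cells was sequenced from SMART-Seq v4 low-input libraries, per the labels' protocols, in 2 libraries per group. The submitters' processing notes name CASAVA 1.8, Trimmomatic, TopHat and the mm10 build. The sources used here give neither the program behind the expression values nor the test. The authors deposited FPKM as 1 value per gene and group, so the libraries were pooled or averaged before deposit. The authors also deposited a log2 ratio and an unadjusted p-value per gene. Without values per library, no count model, limma fit or fit with a replicate block could be made.

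Each difference is log2(FPKM + 1) in new minus that in original hair cells, over genes that reached 1 FPKM in either group and were above 0 in both. Folds are plain FPKM ratios. Deposited p-values were adjusted by Benjamini-Hochberg over the 9026 tested genes. For 3 genes, none a member, the deposited log2 was 0 although FPKM differed, and they were left out of the tests. Percentiles are ranks of FPKM among all genes of a column, and shares are of the class FPKM sum. Listed starts were raised by 1, after which 14 of 37 equalled the RefSeq start, against 1 before. A listed locus may span overlapping genes: 10 members share theirs with another row. Kits of this type do not mark strand.

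Named genes were all members, the 2 partners of highest mean per role and partners past 2-fold with a deposited p under 0.05, of which 1 is not reported here. Members and lists were chosen with earlier results of these data known. Scalings were a trimmed mean (30% of ratios and 5% of levels cut at each end), quantile normalization and equal sums. The code of the first 2 was checked on simulated data, and equal sums was not. Far fewer genes differed in the simulated data than in these data, so the check does not show which scaling suits them. Software was matplotlib 3.10.9, scipy 1.17.1, pandas 2.3.3 and numpy 2.4.6 under Python 3.11.15. Promoter sequences are from RefSeq, GRCm38.p6.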

Additional observations from a re-analysis of the deposited data

How the results depend on the processing

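The median difference of the tested members (0.35) became 0.56 with a pseudocount of 0.1, 0.22 without a filter on level (25 members), 0.58 with trimmed-mean scaling, 0.34 after quantile normalization, 2.94 with equal sums and 0.66 without rows that share a locus (8 members, without Cacna1d, Cacna2d4 and Cacnb2). Over all genes tested in each setting the median was -0.26, -0.04, 0.06, 0.28, 2.53 and -0.20 in that order. With a filter of 5 FPKM, which left 6 members, the median of members turned to -1.47, beside -1.11 over all genes tested then. The count at least 2-fold higher (4) became 5 with a pseudocount of 0.1 (26.8% of all tested genes) and with trimmed-mean scaling (26.2%). It became 3 without rows that share a locus (19.6%), 2 with the 5 FPKM filter (21.7%) and 8 with equal sums (69.55%). The count at least 2-fold lower (3) became 5 with a pseudocount of 0.1 (39.05%) and 2 with equal sums (15%). Among the 7 members past 2-fold, 1 changed direction under any of these settings, Stim2 with equal sums (0.83). After quantile normalization Orai1 made up 90.8% of store entry in new hair cells and 5.23% in original hair cells. Ranking only among genes above 0 FPKM, a setting chosen after seeing the data, placed Orai2 at percentile 32.4 in new and 88.8 in original hair cells, and Orai1 at 93.2 in new and 67.9 in original hair cells. The other scalings of the partner and marker lists were also added after seeing the data.

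No paired analysis was possible because the table holds 1 value per group, and leaving out 1 library at a time was not run for the same reason. Differences between groups were not set against the spread between libraries, and values far under 1 FPKM have unknown precision.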

Other observations

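Several members lie next to each other on a chromosome. Of the gamma genes, Cacng1 and Cacng4 on chromosome 11 were both listed at 0 in both groups. On chromosome 6, Cacna1c and Cacna2d4 are 14911 bases apart in the listed loci. Cacna1c stood at 0.0312 FPKM in new hair cells and was listed at 0 in original hair cells, while Cacna2d4 stood at 4.54 FPKM in new and 0.0982 FPKM in original hair cells. Dcp1b, listed under the same locus as Cacna1c, was at 3.72 FPKM in new and 1.40 FPKM in original hair cells. On chromosome 14, Lrtm1 shares the listed locus of Cacna2d3, and stood at 0.261 FPKM in new and 3.80 FPKM in original hair cells. Lrtm1 and Lrtm2, which are listed under the loci of Cacna2d3 and Cacna2d4, were both lower in new hair cells on the deposited scale, while their channel genes were not. No shared bases were found between the annotated exons of Cacna1c, Cacna2d3 or Cacna2d4 and those of Dcp1b, Lrtm1 or Lrtm2. Whether reads were divided correctly within these loci was not tested.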
